A study of Mus musculus with 54 samples.

Results

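The 6 arrays described here compare embryoid bodies (EBs) of the Mageb16 knockdown line (KD) with EBs of the wild-type line (WT) after 2 days of differentiation, with 3 arrays for each line out of 54 in the whole series. The members were taken from the sample titles, which give the line, the day and the array number. The study followed murine CGR8 embryonic stem cells (ESCs), a male mouse line, in 3 forms (WT, KD and a scrambled shRNA control called SCR) from the undifferentiated state (day 0) through EBs of days 2, 4, 12, 15 and 22. WT cells were untransfected. KD cells carried a short hairpin RNA against Mageb16 in the plasmid pGFP-V-RS and were selected with puromycin as 1 polyclonal population, and SCR cells carried a scrambled hairpin in the same kind of plasmid. KD and WT EBs therefore differ in the hairpin, in transfection and in selection, which cannot be told apart in this comparison, and SCR values are given beside most of the genes described array by array. EBs were made as hanging drops, and nothing in the labels tells if the triplicate arrays were hybridised from independent cultures. The p-values measure only the spread between arrays within groups, pooled over all 54 arrays of the series.

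EBs leave the naive pluripotent state in their first days. Naive ESCs are held by a circuit of transcription factors such as Esrrb, Klf4, Tfcp2l1, Tbx3 and Nr5a2, which is dismantled as cells become primed epiblast, while the core factors Pou5f1, Nanog and Sox2 persist longer and Fgf5, Otx2 and Dnmt3b come on. Mesoderm and endoderm genes of the primitive streak follow. Mageb16 is an X-linked gene of the melanoma antigen (MAGE) family, whose members are mostly known from germ cells and tumours and often bind ubiquitin ligases. Atf4 is a transcription factor that raises amino acid synthesis and transport genes when the translation factor eIF2 is phosphorylated.

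Values are log2 signals made by robust multi-array average (RMA), so that a difference of 1 is 2-fold. Arrays of a group correlated at 0.995 to 0.997 in both lines, with a median SD of a probe set of 0.104 log2 in WT and 0.119 in KD EBs. Array 3 read between the other 2 arrays in 44.8% of probe sets in WT and 48.0% in KD EBs, against 26.8% to 31.5% for arrays 1 and 2. The reason was not tested, and if array 3 is not independent of the others the SDs and p-values given here are too small. A whole chromosome also stood apart. Over the 548 genes measured on chromosome 15 the median of KD minus WT was -0.16 log2 at day 2, with 77.2% of them below 0, while the medians of the other autosomes and the X lay between -0.04 and 0.08. The arrays themselves separated on this measure, from 0.08 to 0.12 for chromosome 15 against the other autosomes in WT EBs and from -0.06 to -0.04 in KD EBs (exact permutation test, two-sided p = 0.1, the smallest that 3 arrays against 3 can give). SCR minus WT gave -0.18 at day 2. Its part in the results was not tested for single genes, and genes on chromosome 15 are marked where they are named.

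Mageb16 itself was lower on every KD array. Its signal was 9.02, 8.76 and 8.93 in WT EBs and 5.64, 5.04 and 5.75 in KD EBs at day 2. The groups lay far apart, and the KD mean was 3.43 log2 under the WT mean (SE 0.17, limma adjusted p = 9.69e-19), a 10.8-fold difference. SCR EBs read 10.09 ± 0.09 (SD, n = 3), which was 1.19 above WT. Between day 0 and day 2 the mean went from 9.95 to 8.90 in WT cells and from 10.07 to 10.09 in SCR cells. KD minus WT was -2.90 at day 0, and the change of this difference from day 0 to day 2 did not pass the test (-0.53, limma adjusted p = 0.27). Of the other 8 measured genes of the Mage list, 0 passed the test with any size of change, with values from -0.03 for Magea5 to 0.48 for Ndn.

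Most of the genes that differed at day 2 were lower in KD EBs. A probe set was called where limma gave an adjusted p below 0.05 together with a difference of 2-fold or more. This held for 206 of 30939 probe sets (0.666%), 192 lower (0.621%) and 14 higher (0.0453%) in KD than in WT EBs. Without WT array 2 the count of higher probe sets was 25. Taking 1 probe set for each of 14104 genes, 127 genes were lower (0.9%) and 9 were higher (0.0638%). With any size of change the counts were 751 genes lower (5.32%) and 277 higher (1.96%), and the median over all probe sets was 0.0033. Falls over 4-fold were seen in 30 probe sets and rises of that size in 0. On all 206 called probe sets the 3 KD arrays did not overlap the 3 WT arrays, a separation that 23.7% of all probe sets showed. In 29 of the 127 lower genes the KD mean lay under 4.24, the lower quartile of the KD arrays, where the size of a fall is not exact.

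**Figure D1:**
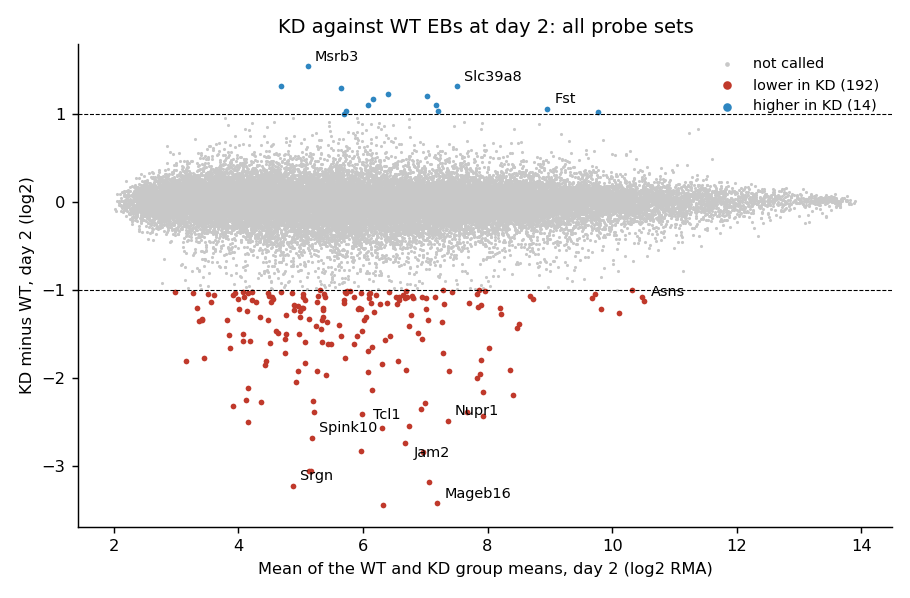
Difference between KD and WT EBs at day 2 (log2, vertical axis) against the mean of the WT and KD group means (log2 RMA, horizontal axis) for all 30939 probe sets. Red points are the 192 probe sets called lower and blue points the 14 called higher, and dashed lines mark 2-fold; the falls reach beyond 3 log2 while the rises stay under 1.6.

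The 12 largest falls included genes that are not usually named as pluripotency factors. Jam2, a junctional adhesion molecule, read 8.30, 7.76 and 8.06 in WT EBs and 5.30, 5.27 and 5.32 in KD EBs. The KD arrays lay within 0.1 of each other and more than 2 below the lowest WT array, and the difference was -2.74 (SE 0.15, limma adjusted p = 1.42e-17), with 4 of its 5 probe sets called. SCR EBs stayed near WT at 7.61 ± 0.34. Mymx, which encodes the muscle fusion peptide myomixer, read 9.30, 9.0 and 9.15 against 6.92, 6.29 and 6.93 (-2.44, SE 0.30), and Mylpf, a fast skeletal myosin light chain, read 8.99, 8.75 and 8.87 against 6.38, 6.36 and 6.70 (-2.39, SE 0.17). Both groups were separate for either gene. SCR EBs lay above WT in Mymx, at 10.28 ± 0.14 (1.13 over WT, limma adjusted p = 0.00504), and at 9.14 ± 0.21 in Mylpf. Plet1, a surface protein of epithelial and trophoblast progenitors, fell by 2.39 (SE 0.25), although in 1 of its 3 probe sets, with SCR EBs at 6.83 beside 6.41 in WT and 4.02 in KD EBs. Laptm5, a lysosomal membrane protein, fell by 2.41 in 1 of its 4 probe sets, and as the mean of the 4 the value was -0.80, which is under 2-fold. SCR EBs read 6.97 there, beside 7.19 in WT and 4.78 in KD EBs.

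In some of the genes with the largest falls the other hairpin line stood beside KD rather than WT. Srgn, the core protein of a secretory granule proteoglycan, read 6.42, 6.39 and 6.65 in WT EBs and 3.40, 2.90 and 3.47 in KD EBs, a difference of -3.23 (SE 0.25, limma adjusted p = 1.3e-12). SCR EBs read 3.29 ± 0.25, within the range of the KD arrays. The predicted gene Gm20767 (-2.32, SE 0.35) read 5.98, 4.20 and 5.04 in WT EBs, 2.93, 2.28 and 3.04 in KD EBs and 3.20 ± 0.15 in SCR EBs, and its WT arrays were spread widely. Cubn, an endocytic receptor of visceral endoderm, was at 5.96 in WT, 3.91 in KD and 4.15 ± 0.24 in SCR EBs. AF067061 and Usp17la, genes of the transient two-cell-like state of ESCs, read 7.22 and 5.36 in WT and 5.08 and 3.51 in KD EBs. In SCR EBs they were at 5.70 and 3.65. They were the calls among 7 measured genes of that state, beside 0.9% of all genes called lower. By contrast Spink10, a protease inhibitor of the Kazal type, read 6.93, 6.08 and 6.55 in WT, 3.91, 3.84 and 3.76 in KD and 7.53 ± 0.24 in SCR EBs (-2.68 for KD against WT, SE 0.18). KD and SCR are each compared here with the same 3 WT arrays.

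The genes of naive pluripotency were lower as a group. Of 21 measured members 9 were called lower and 0 higher, beside 0.9% and 0.0638% of all genes, and the list median was -0.997 against -0.0033 for all genes. With any size of change 14 were lower and 1 was higher, beside 5.32% and 1.96% of all genes. Tcl1, a coactivator of Akt kinase, read 7.96, 7.99 and 8.07 in WT EBs and 5.43, 5.43 and 5.52 in KD EBs (-2.55, SE 0.18, limma adjusted p = 1.96e-13). Tbx3, a T-box factor, read 7.86, 7.23 and 7.68 against 5.30, 4.63 and 5.11 (-2.58, SE 0.19, limma adjusted p = 2.03e-13). All KD arrays of both genes lay under the WT arrays, and SCR EBs were near WT at 8.28 ± 0.08 and 7.33 ± 0.40. Tfcp2l1, a grainyhead-like factor of the naive circuit, read 7.16, 7.24 and 7.04 against 5.77, 5.27 and 5.69 (-1.57, SE 0.15). Nr0b1, an orphan nuclear receptor, read 9.32, 9.09 and 9.20 against 8.04, 7.52 and 7.88 (-1.39, SE 0.21). For these SCR EBs were above WT, at 7.87 ± 0.29 and 10.37 ± 0.10.

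Further members of the circuit fell by less. Esrrb, an orphan nuclear receptor, read 8.11, 7.78 and 7.96 in WT and 6.86, 6.24 and 6.66 in KD EBs (-1.36, SE 0.22, limma adjusted p = 2.15e-05), without overlap, and the mean of its 3 probe sets gave -0.89. SCR EBs were at 9.04 ± 0.21, which was 1.09 above WT (limma adjusted p = 0.000194). Klf4 read 7.74, 7.01 and 7.50 against 6.39, 5.66 and 6.35 (-1.28, SE 0.23), with SCR at 7.03 ± 0.58, and its relative Klf2 differed by -1.17, from 8.47 in WT to 7.31 in KD EBs with SCR at 9.57. Prdm14, a repressor of the primed state, and Nr5a2, a nuclear receptor, differed by -1.07 and -1.05, and read 5.63 and 8.04 in SCR beside 5.03 and 7.17 in WT EBs. Zfp42, the widely used ESC marker Rex1, read 10.68, 10.37 and 10.69 against 9.60, 9.55 and 9.60. Its arrays were separate too, and at 0.997 log2 lower (limma adjusted p = 0.000129) it lay just under the 2-fold minimum, with SCR EBs at 11.20 ± 0.09. The member that went the other way was Dppa3 (Stella), at 0.72 above WT, and Dppa5a (-0.17) and the receptor Lifr (-0.21, on chromosome 15) were among those that did not pass.

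**Figure D2:**
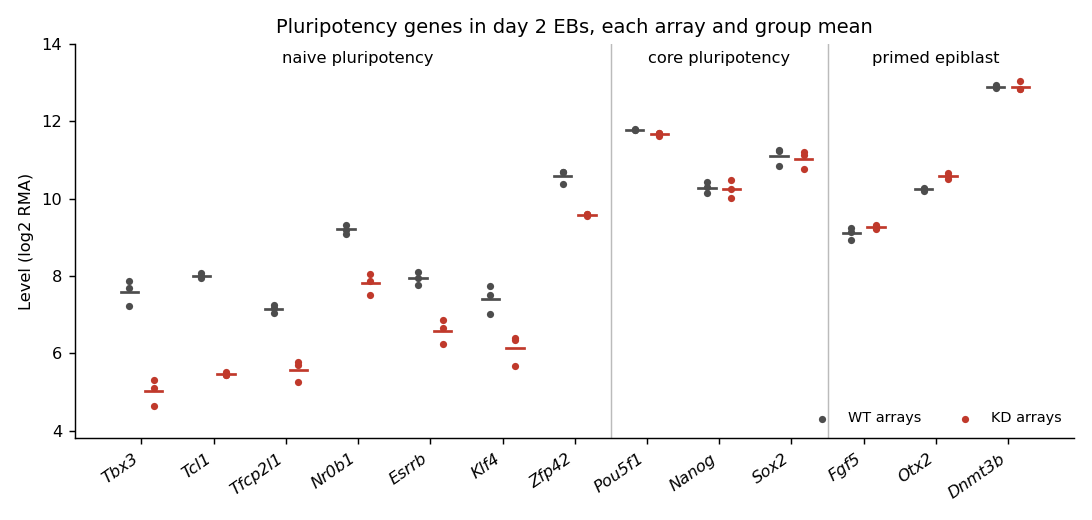
Level (log2 RMA, vertical axis) of 13 pluripotency genes on each WT (grey) and KD (red) array of day 2, with a bar at the group mean. The red points lie under the grey ones in the naive genes at left, while they overlap or lie close in the core genes Pou5f1, Nanog and Sox2 and in the primed genes Fgf5, Otx2 and Dnmt3b.

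The core pluripotency genes did not pass the test. Pou5f1 read 11.79, 11.77 and 11.77 in WT and 11.62, 11.71 and 11.71 in KD EBs, a difference of -0.10 (SE 0.21, limma adjusted p = 0.892), in both lines far above the array medians of 5.94 to 6.08. Nanog read 10.14, 10.42 and 10.29 against 10.01, 10.49 and 10.26 (-0.03, SE 0.21), with overlapping arrays, while SCR EBs were at 9.63 ± 0.13. Sox2 differed by -0.08 (SE 0.14), and SCR EBs stood at 11.82 ± 0.09 in it and at 11.54 ± 0.03 in Pou5f1, beside WT means of 11.11 and 11.78. All 10 measured core genes lay between -0.19 (Utf1) and 0.07 (Sall4 and Lin28a), and 0 passed with any size of change. The SEs of these 3 genes were 0.14 to 0.21 log2, from a variance pooled over all arrays of the series and not from these EBs alone. In Pou5f1 the SDs were 0.01 in WT and 0.05 in KD EBs, and all KD arrays lay under the WT arrays. Such a separation was seen in 23.7% of all probe sets, and the arrays of Sox2 overlapped. A difference that misses the threshold does not show equal levels.

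Genes of the primed epiblast were on in both lines. Fgf5, a ligand of the early epiblast, had risen from 3.89 at day 0 to 8.94, 9.13 and 9.25 in WT EBs and from 3.73 to 9.32, 9.21 and 9.24 in KD EBs, so the arrays of day 2 overlapped (0.15, SE 0.22). SCR EBs were lower, at 8.19 ± 0.07. Otx2, a homeobox factor, read 10.21, 10.28 and 10.24 against 10.66, 10.52 and 10.59 (0.35, SE 0.24, limma adjusted p = 0.509), and 10.20 ± 0.16 in SCR EBs. All KD arrays of Otx2 lay above the WT arrays, with SDs of 0.04 in WT and 0.07 in KD EBs. It missed the threshold with an SE that rests on the variance pooled over all arrays of the series. The DNA methyltransferase Dnmt3b was at 12.90 in both and at 12.42 ± 0.04 in SCR EBs. Of 17 measured genes 0 were called at 2-fold. With any size of change Lef1 (0.47) and Car4 (0.63) were higher, beside 1.96% of all genes. The list median was 0.11.

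Among the genes of the primitive streak the levels at this time were mixed. Mixl1, a homeobox gene of the streak, read 5.22, 5.22 and 4.98 in WT and 5.42, 5.07 and 5.43 in KD EBs, against 9.79 in WT EBs of day 4. Gsc (2.86 in WT and 2.72 in KD) and Wnt3 (3.89 and 3.76) also lay under the array medians. Eomes, a T-box gene, lay above them at 7.64 and 7.92, and in WT it had already risen by 1.35 from day 0 (limma adjusted p = 2.09e-05), with SCR EBs at 6.39 ± 0.12. None of these 4 differed between KD and WT EBs past the test (0.17, -0.14, -0.13 and 0.28). Brachyury (T) has no probe set of its own in the table used here. Beside 0.0638% of all genes higher and 0.9% lower, the list had 1 member higher and 0 lower of 17. That gene was Fst, a secreted antagonist of activin, at 8.02, 8.68 and 8.57 in WT and 9.28, 9.62 and 9.56 in KD EBs (1.06, SE 0.29, limma adjusted p = 0.0219). SCR EBs read 4.99 ± 0.31, far below both, so WT lay between the hairpin lines. Without WT array 1 the value was 0.86, without KD array 2 it was 0.997 and without KD array 3 it was 1.03, and none of these passed. Nodal, a ligand of the same signalling family, was 0.43 lower (SE 0.12, limma adjusted p = 0.0324). WT arrays read 9.92, 9.82 and 9.81, KD arrays 9.5, 9.31 and 9.46, and SCR EBs 9.64 ± 0.14. Nodal was 0.43 lower in KD than in WT ESCs of day 0 too (limma adjusted p = 0.0134). Its feedback inhibitors Lefty1 (-0.42) and Lefty2 (-0.62) did not pass.

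Genes of the amino acid stress response were also lower in KD EBs. Of 19 measured members 4 were called lower and 0 higher, beside 0.9% and 0.0638% of all genes, and 15 were lower and 0 higher with any size of change, beside 5.32% and 1.96% of all genes. The list median was -0.62. Chac1, an enzyme that degrades glutathione, read 8.44, 8.24 and 8.37 in WT and 6.63, 6.34 and 6.31 in KD EBs (-1.92, SE 0.23, limma adjusted p = 8.37e-08). Trib3, a pseudokinase induced by Atf4, read 8.89, 8.84 and 8.84 against 7.31, 6.95 and 7.33 (-1.66, SE 0.15), and asparagine synthetase (Asns) read 11.07 ± 0.07 against 9.94 ± 0.09 (SD, n = 3; -1.13, SE 0.10, limma adjusted p = 3.91e-11). In all 3 genes the KD arrays lay more than 1 below the WT arrays, and SCR EBs lay between them, at 7.71 ± 0.16 for Chac1, 8.44 ± 0.03 for Trib3 and 10.55 ± 0.01 for Asns. Atf3, a factor induced in several stresses, differed by -1.02 (-0.99 without KD array 2 and -0.975 without WT array 1), with SCR at 5.06 ± 0.49 beside 5.20 in KD and 6.22 in WT EBs. Atf4 mRNA itself, encoded on chromosome 15, differed by -0.78 and Ddit3 by -0.90, and the transporter Slc7a3 by -0.01. The list was lower before differentiation too, with a median of -0.45 at day 0, and the difference changed from day 0 to day 2 past the threshold downwards in 0 of the 19 genes. That threshold includes the 2-fold minimum, which Asns missed with a change of -0.71 (limma adjusted p = 0.00224). The change of Trib3 was -0.56 (limma adjusted p = 0.17).

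Nupr1, a small stress-induced nuclear protein not on that list, was among the largest falls of all. It read 8.68, 8.54 and 8.60 in WT and 6.09, 6.02 and 6.25 in KD EBs, with SCR EBs between at 7.57 ± 0.09 (-2.49 for KD against WT, SE 0.22, limma adjusted p = 5.15e-11). Other genes of amino acid and one-carbon metabolism outside the list, named after their values were seen, were Cth (-1.26), Aldh1l2 (-1.18) and Pck2 (-1.0), with the stress gene Ddit4 at -1.22. SCR EBs lay between WT and KD in Cth (10.05), Aldh1l2 (4.81) and Ddit4 (9.71). In Pck2 they read 7.23, beside 7.36 in KD and 8.36 in WT EBs. The p53 list, another stress program, had 0 of 15 members called at 2-fold (median 0.17). With any size of change 3 of them were higher, beside 1.96% of all genes.

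Promoters of these genes are shown because they are lower together and because Atf4 is known to bind, with C/EBP partners, a composite element spelled TGATGNAA. The letters were searched on both strands in the RefSeq windows of GRCm38.p6 that run from 250 bases before to 50 bases after each start. Of 32851 windows 3.97% held them. Of 19 windows of the 17 list genes with an entry 6 did (31.6%), and of 118 windows of the 98 lower genes with an entry 16 did (13.6%). The list is one of the Atf4 response, so a high share could follow from how it was chosen. The sets are also not independent, since Chac1, Trib3, Asns and Atf3 hold the letters and are in both. A match is a description of the letters and not a measured binding site, and a window without one says only that these letters are not in it. In Trib3 the match lies after the start and is not printed. Nupr1 and Srgn, both off the list, are the other genes named by the rule whose windows held the letters. Capitals mark TGATGNAA or its reverse complement in stretches of 60 bases before the start, written on the strand of the gene.
Chac1 (chr2:119351023-119351082, plus strand): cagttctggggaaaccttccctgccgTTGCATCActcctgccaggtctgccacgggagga
Asns (chr6:7693210-7693269, minus strand): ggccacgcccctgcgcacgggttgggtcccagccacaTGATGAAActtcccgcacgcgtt
Atf3 (chr1:191183410-191183469, minus strand): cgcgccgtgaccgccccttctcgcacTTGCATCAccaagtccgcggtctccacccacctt
Slc7a11 (chr3:50443646-50443705, minus strand): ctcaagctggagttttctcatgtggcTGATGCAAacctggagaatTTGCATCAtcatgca
Vldlr (chr19:27216794-27216853, plus strand): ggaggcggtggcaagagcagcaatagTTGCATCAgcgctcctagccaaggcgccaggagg
Nupr1 (chr7:126625547-126625606, minus strand): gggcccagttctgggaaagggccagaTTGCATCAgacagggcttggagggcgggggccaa
Srgn (chr10:62507890-62507949, minus strand): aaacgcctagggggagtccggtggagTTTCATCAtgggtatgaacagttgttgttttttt
The cystine transporter gene Slc7a11 holds the letters on both strands in this stretch and was 0.58 lower in KD EBs. Vldlr, a lipoprotein receptor, was 0.62 lower. Neither reached 2-fold, while Chac1, Asns and Atf3 of the list did. Nupr1 and Srgn also did, but they are shown because they were among the largest falls, so this was fixed by the choice.

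**Figure D3:**
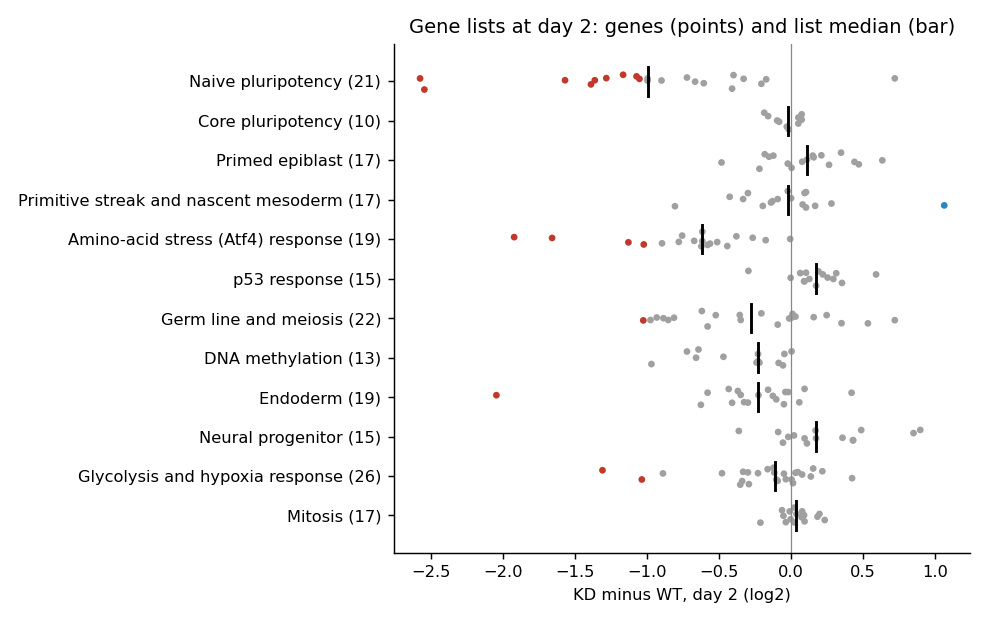
Difference between KD and WT EBs at day 2 (log2, horizontal axis) for each measured gene of 12 lists, with the number of genes in brackets and a black bar at the list median. Red points were called lower and blue points higher; the medians of the naive pluripotency (-0.997) and amino acid stress (-0.62) lists lie farthest left, while that of the core list is at -0.02.

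The other lists held few calls or none. The shares of all genes to set beside these counts are 0.9% lower and 0.0638% higher at 2-fold, and 5.32% and 1.96% with any size of change. Germ line genes had 1 call of 22, the RNA-binding protein Dazl (7.02, 6.77 and 7.0 in WT against 5.95, 5.83 and 5.93 in KD EBs, -1.03), and with any size of change 8 were lower and 3 higher. Dazl in SCR EBs was at 6.01 ± 0.06, beside KD, and the mean of its 2 probe sets gave -0.79. The angiogenic factor Vegfa read 6.15, 5.82 and 6.08 in WT and 4.84, 4.47 and 4.81 in KD EBs (-1.31, SE 0.17), with SCR at 4.88 ± 0.11, and the mean of its 2 probe sets gave -0.65. Ndrg1, a hypoxia gene on chromosome 15, was 1.04 lower in 1 of 4 probe sets (-0.67 as their mean), with SCR at 5.48 beside 6.24 in WT and 5.20 in KD EBs. These were the calls among 26 genes of glycolysis and hypoxia, whose median was -0.11. Id4, an inhibitor of basic helix-loop-helix factors, read 8.21, 8.31 and 8.32 against 7.18, 6.98 and 7.23 (-1.15, SE 0.16) in 1 of its 3 probe sets, whose mean gave -0.86. SCR EBs lay between at 7.72 ± 0.19, and Id4 and Fst made up the calls among 19 genes of BMP signalling. Ier3 (-1.11, with SCR at 7.42 beside 7.14 in WT) and Atf3 were the calls among 16 immediate early genes. Leaving out 1 array took some of these under 2-fold, namely Dazl without KD array 2 (-0.99), WT array 1 (-0.98) or WT array 3 (-0.99), Ndrg1 without WT array 3 (-0.99) and Ier3 without WT array 1 (-0.91). Of 13 DNA methylation genes 0 were called at 2-fold and 5 were lower with any size of change, among them Dnmt3l (-0.97), Tet2 (-0.72) and Tet1 (-0.66).

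Markers of lineages and of other cells that the cultures could hold gave few calls at 2-fold. Lists of trophoblast, neural progenitors, lateral and cardiac mesoderm, simple epithelium, matrix, fibroblast feeders and blood had 0 called genes each, as had those of Nodal, FGF and Wnt signalling, nuclear transport, DNA replication, mitosis, the respiratory chain, cholesterol synthesis, interferon response, imprinting, retinoids and the Y chromosome. With any size of change limma gave 0 to 5 lower and 0 to 2 higher genes in each. The most were 5 of 19 lower for matrix genes, among them the basement membrane genes Nid1 (-0.98), Col4a2 (-0.64) and Col4a1 (-0.63) and the fibronectin gene Fn1 (-0.52), and 4 of 19 for imprinted genes, which were Plagl1 (-0.95), Phlda2 (-0.72), Mest (-0.70) and the noncoding RNA Meg3 (-0.64), against 5.32% of all genes. The endoderm list had Cubn alone of 19. Differences of Krt8 (-0.12) and Krt18 (-0.11), keratins of simple epithelium encoded on chromosome 15, of Cdh1 (E-cadherin, 0.07), of Vim (vimentin, -0.09) and of the cardiac troponin Tnnt2 (0.11) did not pass.

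The few rises were small. Msrb3, a methionine sulfoxide reductase, read 4.35, 4.65 and 4.02 in WT and 5.81, 5.92 and 5.94 in KD EBs (1.55, SE 0.19, limma adjusted p = 2.01e-07), with SCR at 4.10 ± 0.18. Zeb2, a repressor of E-cadherin in the epithelial-mesenchymal transition, read 3.65, 4.35 and 4.05 against 5.49, 5.66 and 4.88 (1.33, SE 0.28), in 1 of its 5 probe sets, and the mean of the 5 gave 0.72, with SCR at 3.39 ± 0.10. Both sets of arrays were separate. Slc39a8, a zinc and manganese transporter, read 6.24, 7.31 and 6.99 against 8.0, 8.21 and 8.28 (1.32, SE 0.21), with SCR at 6.30 ± 0.28, and the myosin light chain Myl9 differed by 1.21. Aass, the first enzyme of lysine breakdown, was 1.17 higher in KD than in WT EBs, but SCR EBs were at 9.43 ± 0.06, above both (6.75 and 5.58). The lymphocyte receptor Btla was 1.10 higher, with SCR EBs at 3.95 ± 0.35 below both lines, and Plac8 (1.03) and Crispld1 (1.0, just at 2-fold) had SCR EBs at 7.59 and 6.14, beside KD at 7.72 and 6.20. Probe sets of the potassium channel Kcnj3 and of securin (Pttg1), which do not represent their genes here and were named after their values were seen, were the remaining named rises. As the mean of all probe sets of a gene, Msrb3 (0.78), Slc39a8 (0.88), Fst (0.95) and Crispld1 (0.96) came in under 2-fold. Leaving out 1 array did the same for Btla (0.91 without WT array 1), Plac8 (0.96 without KD array 2 and 0.997 without WT array 3) and Crispld1 (0.93 without KD array 3 and 0.97 without WT array 1 or 3).

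Arrays of day 0 show which of these differences the undifferentiated lines already had. KD and WT ESCs differed in 326 probe sets (1.05%), 247 of them lower in KD. Of the 192 probe sets lower at day 2, 70 were also called lower at day 0, which is 36.5% of the first list and 28.3% of the second, against a background of 0.798% of all probe sets. Mageb16, Srgn, Spink10, Gm20767, AF067061, Usp17la, Plet1, Cubn, Dazl and Trib3 (-1.10 at day 0) were in this group. In the amino acid stress list 3 of 19 genes were called lower at day 0, against 1.18% of all genes, namely Trib3, Vldlr (-1.08) and the C/EBP factor Cebpb (-1.18). At day 0 174 of the 192 lay below 0 and 0 were called higher. Of the 14 probe sets higher at day 2, 6 were already higher at day 0 (background 0.255%), among them those of Msrb3 (2.15), Slc39a8 (1.75), Aass (1.66), Myl9 (1.26) and Plac8 (2.28).

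The naive genes were mostly not in that group. Over the 21 genes the median of KD minus WT was -0.06 at day 0, with 1 gene lower and 1 higher (background 1.18% and 0.347% of genes), and 10 of the 21 had a change of the difference from day 0 to day 2 that passed the test downwards (background 0.567% of genes). Tcl1 was at 10.72 in WT and 10.54 in KD ESCs, Tfcp2l1 at 10.56 and 10.54, Nr0b1 at 11.72 and 11.67 and Esrrb at 10.39 and 10.32. Tbx3 was already lower in KD ESCs, at 9.79 beside 10.57 in WT (-0.78, limma adjusted p = 0.00278), which is under 2-fold. The change of the difference was -2.36 for Tcl1 (limma adjusted p = 1.72e-07), -1.55 for Tfcp2l1, -1.34 for Nr0b1 and -1.30 for Esrrb. Jam2 (-2.42, from 10.29 in WT and 9.96 in KD ESCs), Nupr1 (-2.13) and Mymx (-2.03) also passed. Klf4 (-1.13, limma adjusted p = 0.0543) and Chac1 (-1.08, limma adjusted p = 0.0604) missed the threshold for this change. One member, Dppa3, was counted downwards because its excess in KD cells shrank from 1.96 to 0.72.

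In all, 51 of the 192 lower probe sets, of 41 genes, had such a change past the threshold downwards (0.433% of all probe sets had one, and 0.249% upwards), 70 were already lower at day 0, and 71 did neither. The first of these counts was 41 with the 12 arrays alone, 57 with array weights and 33 with a test against a 1.2-fold change, and the last was then 81, 65 and 89. The 51 had a median level of 8.92 in WT ESCs, 7.17 in WT EBs, 5.30 in KD EBs and 7.62 in SCR EBs of day 2. The median of KD minus WT over them was -0.11 at day 0 and -1.49 at day 2. Differences at both days entered the choice of these probe sets, those of day 2 through the call and those of both days through the change. Both medians are therefore descriptions.

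**Figure D4:**
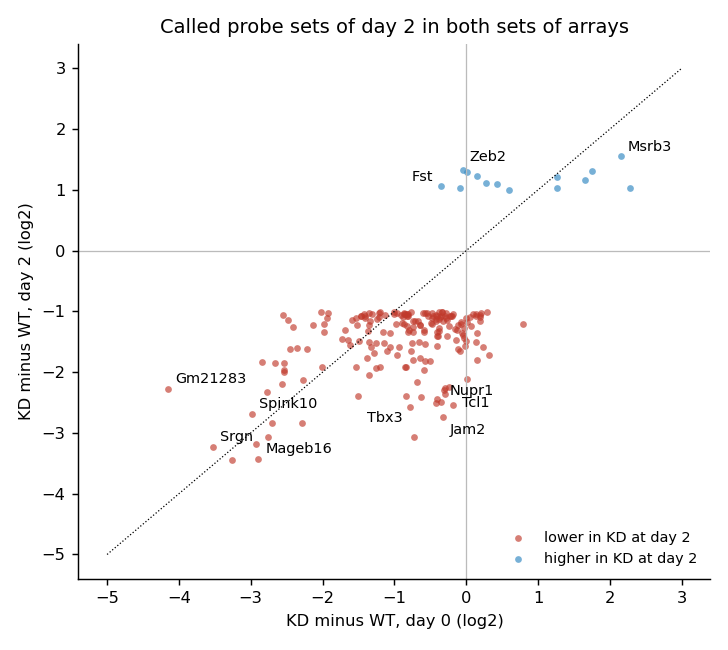
Difference between KD and WT at day 2 (log2, vertical axis) against that at day 0 (log2, horizontal axis) for the 206 probe sets called at day 2, with a dotted line of equal values. Mageb16, Srgn and Spink10 lie near the line, whereas Jam2, Tcl1 and Nupr1 lie within 0.4 of 0 at day 0 and under -2.4 at day 2.

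The probe sets lower in KD EBs at day 2 were mostly ones that WT cells lose as they differentiate. Between day 0 and day 4, which the comparison of day 2 did not use, 153 of the 192 (79.7%) were called lower in WT cells. This compares with 8.19% of all probe sets, and the median change of the 192 was -2.27. A probe set called lower at day 2 had to stand above the floor in WT EBs, which was not asked of all probe sets. The shares are therefore not matched for level, and how much of the excess comes from this was not tested. Among the naive genes 17 of 21 fell in WT from day 0 to day 4 (background 9.08% of genes), with a median of -3.14. The KD EBs of day 2 were at or below the WT level of day 4 in some of the naive genes, such as Tcl1 (5.46 against 6.29) and Tfcp2l1 (5.58 against 5.77), and also in Jam2, which is not on that list (5.30 against 6.32). In others they were not, as with Nr0b1 (7.81 against 6.14) and Esrrb (6.59 against 5.25). Of the 10 core genes 6 fell in WT by day 4, while 0 passed the test between the lines at day 2.

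By day 4 fewer genes differed between the lines. KD and WT EBs differed in 75 probe sets (0.242%) at day 4, and of the 192 lower at day 2, 30 (15.6%) were still called lower, against 0.175% of all probe sets. Tcl1 (-1.82, limma adjusted p = 5.06e-09), Jam2 (-1.63) and Nr0b1 (-1.37) were among them, and Mageb16 was 3.28 lower. Tbx3 was back at 9.87 in KD EBs of day 4, which was -0.13 against WT (limma adjusted p = 0.888), after -2.58 at day 2. For Pou5f1 the order of days was the opposite, at -0.10 on day 2 and -1.13 on day 4 (limma adjusted p = 0.000862). Mixl1 was likewise 1.25 lower in KD EBs at day 4 (limma adjusted p = 0.00147) with 0.17 at day 2, and the change between these days was not tested. Both p-values rest on the variance pooled over all arrays of the series, which is smaller than the spread at day 4. The day 4 SDs were 0.62 in WT and 0.45 in KD EBs for Pou5f1, and 0.755 and 0.65 for Mixl1. Pou5f1 read 11.54 in SCR, 9.29 in WT and 8.16 in KD EBs of day 4, and Mixl1 5.32, 9.79 and 8.54.

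**Figure D5:**
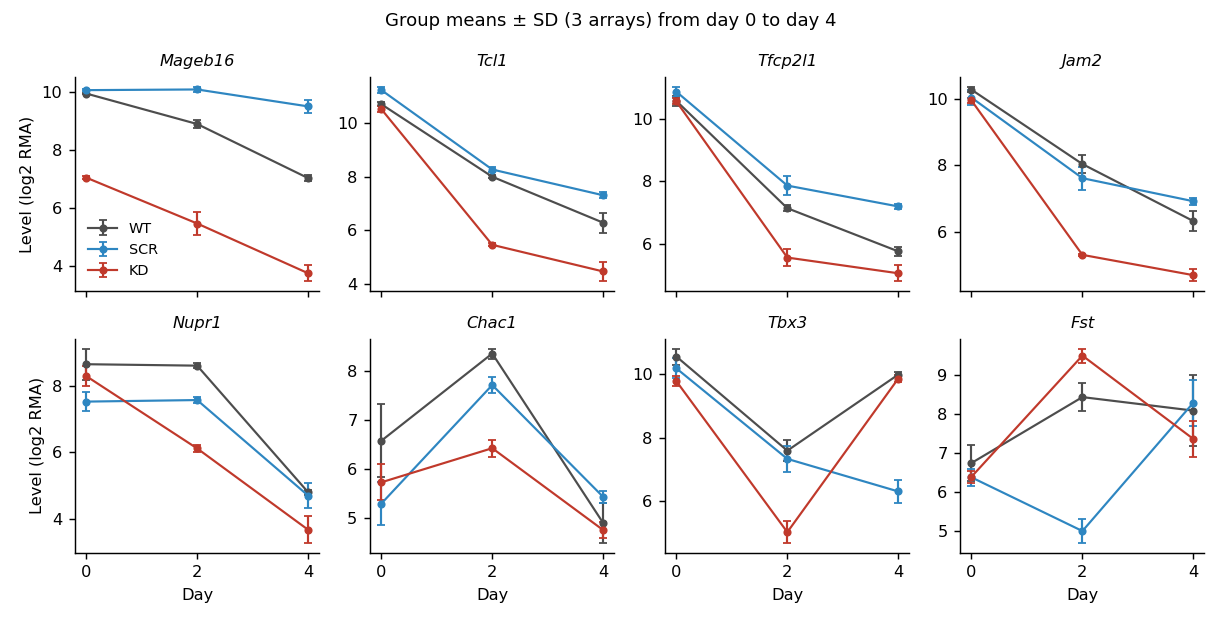
Level (log2 RMA, vertical axes) of 8 genes at days 0, 2 and 4 in WT (grey), SCR (blue) and KD (red) cells, as group means with bars of 1 SD over 3 arrays. Tcl1, Tfcp2l1, Jam2 and Tbx3 start within 1 log2 of each other in the 3 lines and are lowest in KD EBs at day 2, whereas Mageb16 is low in KD cells at every time shown.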

How the data were processed

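RNA of EBs was hybridised to Affymetrix mouse genome arrays of the 3′ expression kind, and the deposited table holds log2 values that the authors made by RMA (background correction, quantile normalization and probe summary). Per the labels' processing notes this was done with Expression Console and Partek 6.6, while the study's methods name R packages. The table used here has 30939 probe sets, of which 25596 carry 1 gene symbol, 685 several and 4658 none. A gene stood for its own probe set with the highest mean over the 54 arrays. All 54 arrays entered a single model in limma 3.58.1 (R 4.3.3) with 18 group means, with moderated variances and Benjamini-Hochberg adjustment over all probe sets. The threshold was an adjusted p below 0.05 together with a difference of 2-fold or more. SEs are limma's. Genes were named by a rule (the target, the 12 largest rises and falls, up to 4 per list, fixed markers, and the 6 largest changes from day 0 each way). The arrays compared, the 34 gene lists and the tests were chosen with earlier results of these data known. The number of arrays limits precision. The procedure was tested on simulated data. Chromosomes came from RefSeq, and promoters of chromosome 18 were not searched. Alternatives covered normalization, probe sets, arrays, array weights, variance model, the fold rule, a replicate block and each array left out.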

Additional observations from a re-analysis of the deposited data

Results flagged for a closer look

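For 25 named genes the difference between KD and WT changed from day 0 to day 2 past the threshold (limma interaction, adjusted p below 0.05 and 2-fold or more). The difference moved down for Jam2 (-2.42), Tcl1 (-2.36), Nupr1 (-2.13), Gbp2b (-2.11), Mymx (-2.03), Lrrc31 (-2.01), Tbx3 (-1.80), Laptm5 (-1.79), Mylpf (-1.55), Tfcp2l1 (-1.55), Lefty2 (-1.48), Id4 (-1.35), Nr0b1 (-1.34), Esrrb (-1.30), Plac8 (-1.25), Vegfa (-1.18) and Zfp42 (-1.09). Plac8 and the interferon-induced gene Gbp2b got there from a KD excess at day 0 (2.28 and 1.39). Lefty2 was likewise higher in KD at day 0 (0.86, limma adjusted p = 0.0433), and its -0.62 at day 2 did not pass (limma adjusted p = 0.266).

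It moved up for Tspan8 (2.31), Cdc14a (2.09), Ceacam20 (1.97), Gm21283 (1.88), Htr1b (1.56), Col4a1 (1.56), Zeb2 (1.38) and Vim (1.16). Apart from Zeb2 these were lower in KD than in WT ESCs at day 0, from -1.25 for Vim to -4.15 for Gm21283. In EBs of day 2 Vim read 9.58, 9.11 and 9.41 in WT and 9.13, 9.25 and 9.44 in KD, with overlapping arrays. Cdc14a, a phosphatase gene, read 8.80 in WT and 6.75 in KD ESCs, and 7.23 and 7.27 in EBs of day 2. Col4a1, a basement membrane collagen, differed by -2.18 in ESCs and by -0.63 in EBs of day 2. Over all probe sets 134 changed down and 77 up, and of the 77, 51 had been called lower in KD ESCs.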

How the results depend on the processing

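The counts at day 2 kept their sizes under most settings. Leaving out each array in turn gave 172 to 217 probe sets lower and 10 to 25 higher at day 2, with the 25 reached without WT array 2. The same gave 322 to 414 at day 0. The change from day 0 to day 2 gave 162 to 300 with each of its 12 arrays left out, the 300 without WT array 2 of day 0, where leaving out the day 0 arrays was an alternative chosen after seeing the data. The latter count was 139 with the 12 arrays compared alone, 333 with array weights and 95 with a test against a 1.2-fold change, beside 211. With the brightest 60% of probe sets 207 were called at day 0, where fewer probe sets were tested. Leaving out chromosome 15, an alternative chosen after seeing the data, gave 179 lower and 14 higher at day 2, 286 at day 0 and 207 for the change.

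Arrays were not treated as paired, since neither labels nor methods say what the number stands for. After the group mean was taken from each probe set, same-numbered WT and KD arrays of day 2 correlated at 0.167, 0.0944 and 0.112. The highest value with another number was -0.08, -0.002 and -0.02. Each WT array thus correlated best with its own number, as a hint from the data. With 3 arrays centred on their mean, a positive value for the same number pushes the other values down. A block by replicate number gave 192 lower and 14 higher at day 2, 326 at day 0 and 215 for the change.

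Of 39 named genes past the threshold 24 stayed past it under all 15 alternatives, 15 lost the call in at least 1, and 0 changed direction. Fst was lost without KD array 2 (0.997), KD array 3 (1.03) or WT array 1 (0.86). Dazl and Atf3 were lost under several settings, among them quantile normalization (-0.94 and -0.97). Zfp42 gained the call in 4 settings. Genes whose KD signal lay near the lower quartile have falls of uncertain size.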

Other observations

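Chromosome 15 separated the WT line from both hairpin lines at other times too. Over its 548 measured genes the median of KD minus WT was -0.32 at day 0, -0.16 at day 2 and -0.05 at day 4, and that of SCR minus WT was -0.35 at day 0 and -0.18 at day 2. Against the other autosomes, the chromosome 15 median of an array (relative to its mean over the 54 arrays) was 0.21 ± 0.02 (SD, n = 3) in WT at day 0, 0.10 ± 0.02 at day 2, -0.04 ± 0.01 at day 4, and 0.22 to 0.29 on average in WT EBs of days 12, 15 and 22. In the 12 groups of SCR and KD cells the group means lay between -0.11 and -0.04. At day 0, 31 of these genes were called lower in KD than in WT cells (5.66%, against 1.18% of all genes with a chromosome), and at day 2, 10 were (1.82%, against 0.891%). The share at day 2 was not particular to chromosome 15, with 1.87% on chromosome 14 and 1.64% on the X. The pattern was seen after the values had been examined, and its cause was not tested.

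Several of the lower genes outside the lists, named after their values were seen, are known from the germ line, the placenta or early ESC states. Among them were Rhox5 (-2.20), Rpl39l (-2.17), Gtsf1 (-1.69 in 1 of 2 probe sets, on chromosome 15), Tsx (-1.45), Morc1 (-1.44) and Fbxo15 (-1.27). SCR EBs were at 6.32 for Rhox5, under KD at 7.31 and WT at 9.51, and at 10.33 for Rpl39l, above WT at 9.01. The galectin Lgals3 was 2.29 lower.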
